A study of Mus musculus with 6 samples.

Results

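The high mobility group (HMG) genes of cortical astrocytes were examined, namely Hmgn1, Hmgn2, Hmgn3 and Hmgn5 of the HMGN family, Hmgb1, Hmgb2 and Hmgb3 of the HMGB family, and Hmga1 and Hmga2 of the HMGA family. Members were the rows of the expression table whose symbol equals one of these names, and all 9 were found among its 43383 rows. The libraries were made from somatosensory cortex astrocytes of male mice, 4 weeks old and of the Aldh1l1-eGFP genotype, a transgenic line in which green fluorescent protein (GFP) is driven by the promoter of the astrocyte gene Aldh1l1. Upper-layer astrocytes (ULAs) came from layers II–IV and deep-layer astrocytes (DLAs) from layers V and VI of the same 3 brains. Tissue at the border of layers IV and V was cut away together with layer I and the corpus callosum, and GFP-positive cells were then sorted. Both groups share the transgene, the comparison asks whether astrocytes of upper and deep layers differ in gene expression, and HMGN1–3 were also among the proteins that the study stained in sections.

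HMG proteins are abundant nuclear proteins without a sequence-specific target that change how DNA is packed. HMGN proteins bind the nucleosome core and compete with linker histone H1, HMGB proteins bend DNA through their HMG boxes, and HMGA proteins bind the minor groove of AT-rich DNA through short AT-hooks. HMGN proteins are known to act in the switch of neural precursors from making neurons to making astrocytes, HMGB1 also acts outside cells as a danger signal, and HMGA genes are best known from embryonic tissue and tumours.

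Each family is recognised by a short conserved stretch of its coding sequence, which is shown because it is what the members share and because similarity between genes bears on how short reads are assigned. The stretches were read from the GENCODE M21 transcripts (GRCm38), are 30 bases long and are written 5′ to 3′ in the sense of the mRNA, with capitals for the bases identical in all listed members of that family. In the HMGN family the stretch lies in the nucleosome-binding domain, and 17 of the 30 bases are identical in all 4 genes.
Hmgn1: TCcGCgaGgcTGTCgGCcAagCCcGccCCt
Hmgn2: TCtGCgaGgtTGTCtGCtAaaCCtGctCCt
Hmgn3: TCgGCcaGgtTGTCcGCgAaaCCtGttCCa
Hmgn5: TCaGCccGacTGTCtGCtAtgCCtGtgCCc
Counted from the A of the start codon, these begin at coding bases 58, 73, 79 and 52, respectively. In the HMGB family the stretch lies at the end of the second HMG box, with 27 of 30 bases identical, and begins at coding bases 451, 451 and 445.
Hmgb1: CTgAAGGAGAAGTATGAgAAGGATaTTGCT
Hmgb2: CTaAAGGAGAAGTATGAaAAGGATaTTGCT
Hmgb3: CTgAAGGAGAAGTATGAgAAGGATgTTGCT
In the HMGA family the stretch covers the first AT-hook, with 23 of 30 bases identical, and begins at coding bases 67 and 76.
Hmga1: AAGCGAGGcCGgGGCaGgCCacGcAAGCAG
Hmga2: AAGCGAGGaCGcGGCcGaCCcaGgAAGCAG
Over the whole aligned coding sequence, pairs of HMGN genes were 65.7% to 70.6% identical, pairs of HMGB genes 74.6% to 78.5%, and the HMGA pair 71.7%. No 36-base stretch, the length of a read here, was shared between any of the 9 members.

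The values are RPKM, that is, reads scaled to the length of the mRNA in kilobases and to the number of mapped reads, so that levels of different genes can be set side by side per length. From the steps of the values, depth was 24.4 to 26.7 M reads in ULAs and 19.7 to 29.6 M reads in DLAs. The sorted cells carried the astrocyte markers, with a summed RPKM of 10 markers of 11565 to 12519 in ULAs and 10897 to 11685 in DLAs, and 0 of these 10 differed between the layers (limma, adjusted p, with 4 at an unadjusted p under 0.05). The 9 oligodendrocyte markers summed to 87.0 to 176.8 RPKM in ULAs and 175.9 to 275.0 in DLAs, and 5 of the 7 tested, among them Mbp and Mog, were higher in DLAs. The 4 red blood cell markers in the table summed to 0.94 to 1.79 RPKM in ULAs and 15.4 to 76.7 in DLAs, with Hbb-b1 and Hbb-b2 at 0 in all ULA libraries. The 8 neuron markers summed to 7.21 to 7.54 RPKM in ULAs and 5.21 to 7.84 in DLAs, and the 7 microglia markers to 13.0 to 13.8 and 8.63 to 11.7, with P2ry12 higher in ULAs at an unadjusted p of 0.0172 (limma, adjusted p = 0.199). The pericyte marker Rgs5 (mean 1.57 RPKM) was higher in ULAs (adjusted p = 0.0455). The more abundant pericyte marker Pdgfrb (mean 14.5 RPKM) did not differ (log2 difference 0.08, limma, adjusted p = 0.79). The 6 pericyte and smooth muscle markers summed to 15.18 to 21.91 RPKM in ULAs and 11.25 to 17.93 in DLAs, which overlap. The fibroblast marker Col1a1 was higher in DLAs at an unadjusted p of 0.006 only (adjusted p = 0.13). In such sorted pools, fewer cells of a type and less RNA per cell cannot be told apart.

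Hmgn3 was by far the most abundant of the 9 mRNAs in every library. It encodes an HMGN protein with a long and a short splice form, which the table joins in 1 row. Its RPKM was 553.5, 702.6 and 620.8 in the ULAs of brains 1, 2 and 3, and 587.9, 912.8 and 592.6 in the DLAs of the same brains, resting on 12327 to 16399 reads per library. The row ranked 80 among all rows by mean RPKM and supplied 93.1% to 96.0% of the summed RPKM of the 9 genes. Its mean of 661.7 RPKM was 36.7 times that of Hmgn1, 86.9 times that of Hmgn2, 88.2 times that of Hmgb1 and 369.0 times that of Hmgn5.

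**Figure D1:**
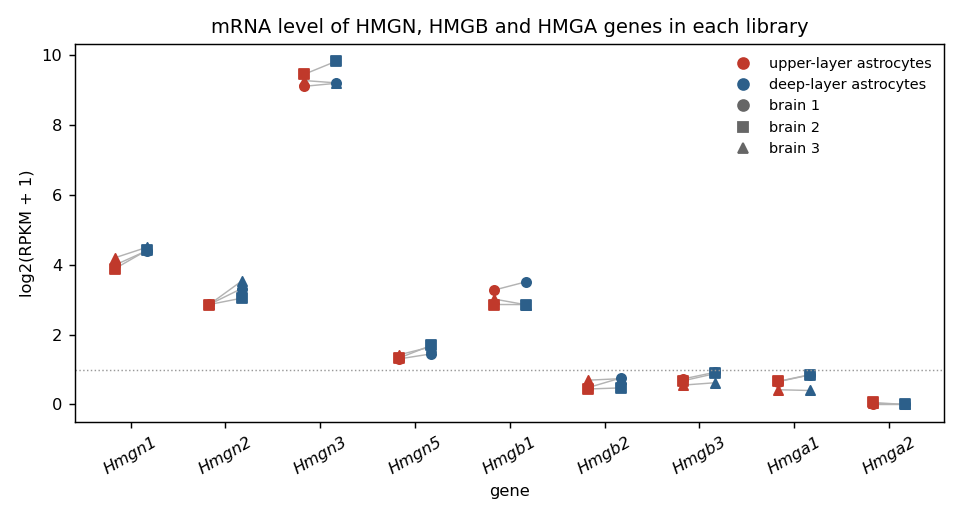
Level of each HMG gene in each library, on the log2(RPKM + 1) scale, with ULAs in red, DLAs in blue, 1 symbol shape per brain and a grey line joining the 2 libraries of a brain. Hmgn3 lies above the other genes in all 6 libraries, the dotted line is at an RPKM of 1, and Hmgb2, Hmgb3, Hmga1 and Hmga2 lie below it.

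Below Hmgn3 the order of the mean levels was Hmgn1 (18.0 RPKM), Hmgn2 (7.62), Hmgb1 (7.50), Hmgn5 (1.79), Hmgb3 (0.67), Hmga1 (0.57), Hmgb2 (0.522) and Hmga2 (0.01). The ranges over the 6 libraries overlapped for Hmgn2 and Hmgb1, and for Hmgb3, Hmga1 and Hmgb2 among each other, so these neighbours were not separated in level. The other neighbouring genes in this order had ranges that did not overlap, but the place of Hmgn2 and Hmga1 in it can depend on how reads shared with other genes were counted, as given with the sequence comparison. Each family therefore had 1 leading member, and for the HMGA family that member was itself under 1 RPKM in all libraries.

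None of the HMG genes passed the test between layers. The test was run with limma on log2(RPKM + 1) for the 13999 rows whose mean RPKM was 1 or more, with brain and layer in the model. Of these rows, 1.63% had a Benjamini-Hochberg adjusted p under 0.05, 0.714% with ULAs higher and 0.914% with DLAs higher. Of the 9 members, 5 were tested (Hmgn1, Hmgn2, Hmgn3, Hmgn5 and Hmgb1), 0 had an adjusted p under 0.05, and 4 fell under the filter. Hmgn1 and Hmgn2 had an unadjusted p under 0.05, which is 2 of 5 members beside 16.4% of all tested rows, and both were higher in DLAs, beside 10.8% of all rows for that direction. All 5 differences were on the DLA side of 0, as were 55.0% of all rows, with a median upper minus deep difference of −0.25 on the log2 scale for the members and −0.03 for all rows.

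**Figure D2:**
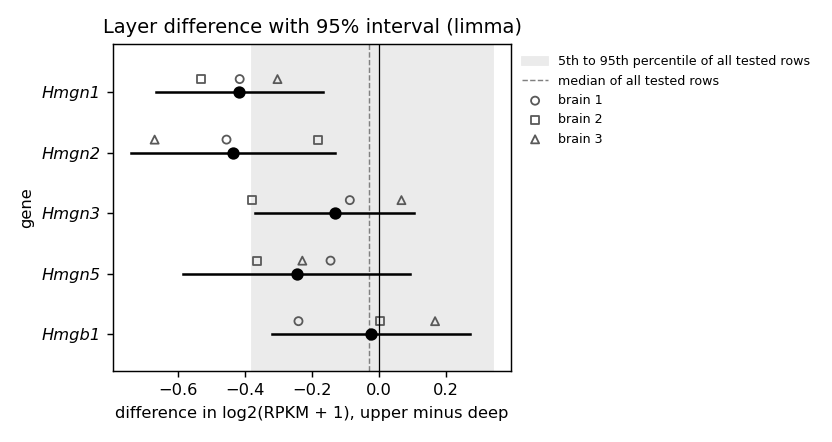
Difference between ULAs and DLAs in log2(RPKM + 1) for the 5 tested genes, with the limma estimate as a filled point, its 95% interval as a bar and the 3 brains as open symbols. The grey band runs from −0.38 to 0.34, the 5th to 95th percentile of all tested rows, and the estimates for Hmgn1 and Hmgn2 (−0.42 and −0.43) lie beyond its lower edge.

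Hmgn1 and Hmgn2, the widely expressed founding members of the HMGN family, had the largest differences. Hmgn1, on chromosome 16 from 96343195 to 96349332 on the minus strand (mm9, 6 exons), had an RPKM of 14.9, 13.8 and 17.4 in ULAs of brains 1 to 3 and 20.2, 20.3 and 21.7 in DLAs. All DLA libraries thus lay above all ULA libraries, and DLAs were 1.36 ± 0.115 times ULAs (mean of per-brain ratios ± SD, n = 3). The log2 difference was −0.42 (SE 0.11, 95% interval −0.66 to −0.17, adjusted p = 0.104, limma), and the 3 brains gave −0.42, −0.53 and −0.30. Hmgn1 passed when brain 3 was left out (adjusted p = 0.0331), and its adjusted p ranged from 0.0331 to 0.563 over the 11 other settings tried. With a correction for mRNA length its difference was −0.30 (limma, adjusted p = 0.233).

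For Hmgn2, on chromosome 4 from 133520654 to 133523906 on the minus strand (6 exons), the 3 ULA libraries were nearly equal at 6.29, 6.28 and 6.29 RPKM, and the DLA libraries held 8.99, 7.25 and 10.6. The spread thus lay almost entirely in DLAs (6.29 ± 0.0058 against 8.94 ± 1.67, mean ± SD, n = 3), and the groups did not overlap. The mean per-brain ratio was 1.42 ± 0.265, with a log2 difference of −0.43 (SE 0.14, 95% interval −0.74 to −0.13, adjusted p = 0.159, limma). The 3 brains gave differences of −0.45, −0.18 and −0.67. With a correction for mRNA length the difference of Hmgn2 was −0.32 (limma, adjusted p = 0.357). The Hmgn2 row rested on 179 to 393 reads per library and that of Hmgn1 on 424 to 769.

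Hmgn5, an X-linked HMGN gene whose protein has a long acidic tail, was measured at a low level with the same order of the layers. Its row lies on chromosome X from 106199876 to 106208719 on the minus strand (6 exons). The RPKM was 1.47, 1.51 and 1.68 in ULAs and 1.73, 2.23 and 2.14 in DLAs, from 69 to 121 reads, again with no overlap between the groups. The log2 difference of −0.25 (SE 0.15, 95% interval −0.58 to 0.09) had an adjusted p of 0.452 with limma. On this scale a difference at so low a level is understated, and with a pseudocount of 0.1 in place of 1 it was −0.36, still without passing (adjusted p = 0.467), while with the correction for mRNA length it was −0.16 (adjusted p = 0.647).

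Hmgn1, Hmgn2 and Hmgn5 were thus higher in DLAs in 3 of 3 brains and did not overlap between layers, which is 3 of the 5 tested members. Of all tested rows, 9.27% did not overlap with DLAs higher, and 23.2% were higher in DLAs in 3 of 3 brains. For Hmgn1 and Hmgn2 this direction is opposite to that of the protein staining in the paper, which was done at a younger age. The reason was not tested. Over the 6 libraries the log2 levels of Hmgn1 had a Pearson's r of 0.82 with Hmgn2 and 0.86 with Hmgn5, where the libraries share brains, and this is given as a description only. Between Hmgn2 and Hmgn5 it was 0.63, and Hmgn3 had an r of 0.14 with Hmgn1, −0.20 with Hmgn2 and 0.53 with Hmgn5.

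The abundant Hmgn3, on chromosome 9 from 83003549 to 83040214 on the minus strand (6 exons), had groups that overlapped. It was higher in DLAs in brains 1 and 2 and lower in brain 3, with log2 differences of −0.09, −0.38 and 0.07. The highest of all 6 values, 912.8 RPKM, was that of the DLAs of brain 2, and the other 2 DLA libraries lay within the range of the ULAs. The mean log2 difference was −0.13 (SE 0.11, 95% interval −0.37 to 0.10, adjusted p = 0.573, limma), and it was −0.01 both without brain 2 and, with all brains kept, after a correction for mRNA length. The interval leaves room for DLA levels higher by up to 0.37 on the log2 scale, so equal levels were not shown.

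The HMGB family was represented above 1 RPKM by Hmgb1, which encodes the most widely expressed HMG-box protein. Hmgb1 lies on chromosome 5 from 149858804 to 149864613 on the minus strand (5 exons). Its RPKM was 8.67, 6.28 and 7.13 in ULAs and 10.4, 6.27 and 6.24 in DLAs, so that brain 1 was highest in both layers. The brains disagreed in direction, with log2 differences of −0.24, 0.00 and 0.17 and a mean of −0.02 (SE 0.13, 95% interval −0.32 to 0.27, adjusted p = 0.951, limma). The sign of this mean turned when brain 1 was left out (0.08) and with a correction for mRNA length (0.03).

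Hmgb2 and Hmgb3, which are known from dividing cells and progenitors, were measured under 1 RPKM. Hmgb2, on chromosome 8 from 59990640 to 59994796 on the plus strand, had 0.40, 0.36 and 0.62 RPKM in ULAs and 0.69, 0.39 and 0.67 in DLAs, from 21 to 54 reads. Hmgb3, on chromosome X from 68809168 to 68813829 on the plus strand, had 0.66, 0.60 and 0.47 against 0.90, 0.85 and 0.54, from 21 to 40 reads. Both were higher in DLAs in each brain, by 1.30 ± 0.371 and 1.31 ± 0.142 times (mean of per-brain ratios ± SD, n = 3), and in both the groups overlapped. Among genes of proliferation, Mki67 was listed at 0 and Top2a at 0.05 RPKM or less in every library, and the 11 genes summed to 8.39 to 9.03 RPKM in ULAs and 9.17 to 9.96 in DLAs, of which 2 were tested and 0 differed (limma, 0 at an unadjusted p under 0.05).

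The HMGA genes were near the limit of detection. Hmga1, on chromosome 17 from 27693519 to 27700617 on the plus strand, had 0.57, 0.58 and 0.34 RPKM in ULAs and 0.80, 0.81 and 0.32 in DLAs, from 19 to 44 reads, with brain 3 lowest in both layers. Hmga2, on chromosome 10 from 119798331 to 119913991 on the minus strand, had 5 and 3 reads in the ULAs of brains 2 and 3 and 0 in the other 4 libraries. A count of 0 still allows up to 3 reads, or 0.0243 to 0.0365 RPKM at the depth of those libraries, by counting error only. With no filter on low values, the 4 members that were otherwise untested had log2 differences of −0.12 (Hmgb2), −0.16 (Hmgb3), −0.12 (Hmga1) and 0.03 (Hmga2), with adjusted p-values of 0.645 to 0.719 (limma), and 2 of all 9 members had an unadjusted p under 0.05, beside 2799 of 27963 rows. In that fit 0 rows of the whole table passed, so the absence of members among them says nothing about the members.

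Further rows named after these families were near 0. Hmgb4 had 4 reads in 1 DLA library and 0 elsewhere, Hmgb1-rs17 had at most 1 read in a library, and Hmga2-ps1 was at 0.09 to 0.26 RPKM. Of the rows that overlap a member, ENSMUSG00000077652 inside Hmgn5 had 3 and 2 reads in the ULAs of brains 1 and 2 and 0 elsewhere, and Mir763, 9230105E05Rik and ENSMUSG00000034764, within Hmga2, were at 0 in all libraries.

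Genes of these families have left many processed pseudogenes in the genome, and a 36-base read can match such a copy as well as the parent gene. Of the 36-base stretches of the Hmgn2 transcript, 73.3% also occur in the transcript of another gene of GENCODE M21, in 26 such genes, of which 24 are pseudogenes. For Hmgb1 the share was 42.7% over 145 other genes, 139 of them pseudogenes. Hmgn1 shared 8.1%, Hmgn5 21.6%, Hmgb2 23.9%, Hmgb3 40.9%, Hmga1 72.2% and Hmga2 7.8%. These shares are of the GENCODE transcript, which for Hmgn1 (2174 bases) and Hmgb1 (2838) is longer than the row of the table (1200 and 2309), so that the share of the measured row can be higher. Hmgn3 shared 23.2%, all of it with 1 antisense gene, Gm29054, and none of it in its coding part.

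**Figure D3:**
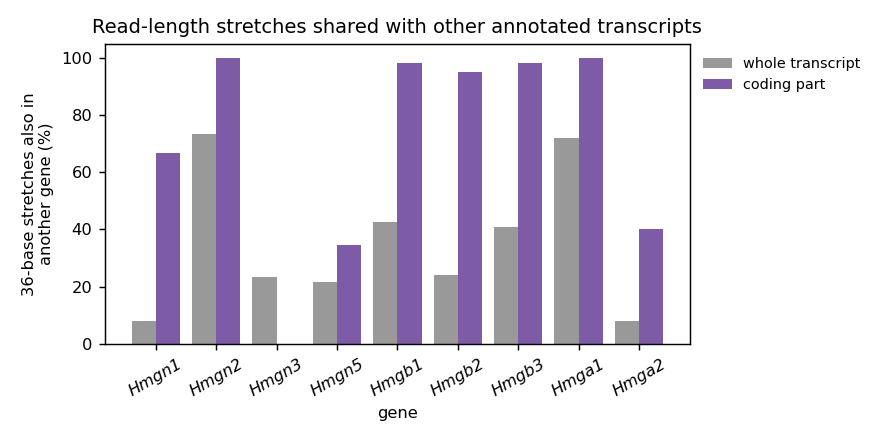
Percent of the 36-base stretches of each gene's transcript (grey) and of its coding part (purple) that also occur, on either strand, in an annotated transcript of another gene. The coding parts of Hmgn2 and Hmga1 are shared at 100% and those of the HMGB genes at 95.3% to 98.5%, whereas that of Hmgn3 is shared at 0%.

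In the coding part alone the share reached 100% for Hmgn2 and Hmga1, 98.5% for Hmgb1, 98.4% for Hmgb3 and 95.3% for Hmgb2, and it was 66.8% for Hmgn1, 40.1% for Hmga2 and 34.6% for Hmgn5. How reads with several matches were counted is not given in the sources used here, and the part of this in the levels was not tested. The copies themselves were assigned few reads: of 80 pseudogene rows of the table that share a stretch with a member, 44 were at 0 in all libraries and the highest mean was 0.402 RPKM. For Hmgb1, 49 rows stood beside 139 such pseudogenes. These low values do not show that the parent genes kept the shared reads. Leaving out reads with several matches would also leave the copies near 0. If no read from a shared stretch had been counted, and reads were spread evenly, the mean RPKM would be 28.6 in place of 7.62 for Hmgn2, 13.1 in place of 7.50 for Hmgb1, 2.05 in place of 0.57 for Hmga1, 1.13 in place of 0.67 for Hmgb3 and 19.7 in place of 18.0 for Hmgn1. On that assumption Hmgn2 would stand above Hmgn1, and Hmga1 and Hmgb3 above 1 RPKM, while Hmgn3 would still be the highest.

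The partners of the HMG proteins were followed as lists, of which 38 of 62 genes were tested, 0 passed in either direction and 7 had an unadjusted p under 0.05 (limma). The median difference of these 38 genes was −0.09 on the log2 scale, and 26 were below 0. Over all tested rows, 16.4% had an unadjusted p under 0.05 and 55.0% were below 0. The linker histones H1, which HMGN proteins displace from nucleosomes, had 3 of 10 genes above the filter, all at an unadjusted p under 0.05 with DLAs higher, and their median was −0.34. H1f0, the linker histone of resting cells, had an RPKM of 33.8, 31.7 and 40.2 in ULAs and 40.8, 40.8 and 49.3 in DLAs, with a log2 difference of −0.30 (SE 0.10, adjusted p = 0.179). Hist1h1c had 29.1, 28.6 and 33.0 in ULAs against 35.5, 39.0 and 41.2 in DLAs, with a difference of −0.34 (SE 0.10, adjusted p = 0.142). The lowest DLA value of each gene was above all 3 ULA values, as for Hmgn1 and Hmgn2 and for 9.27% of all rows.

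**Figure D4:**
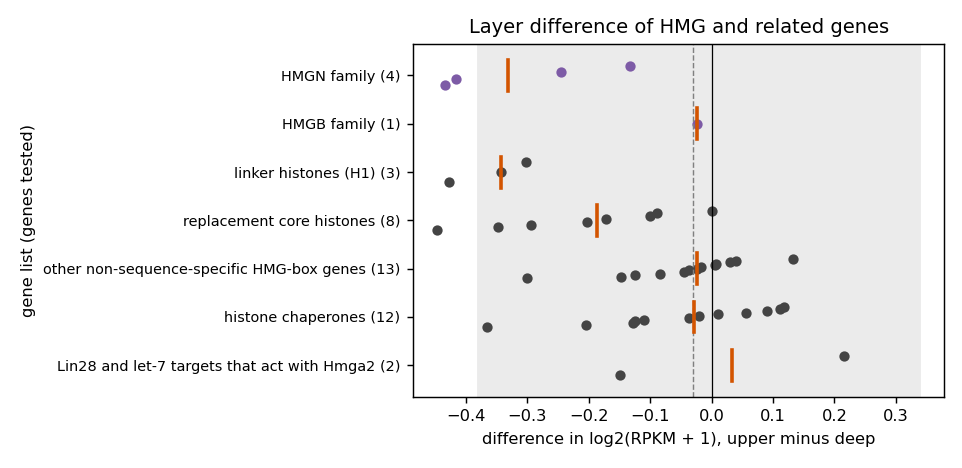
Difference between ULAs and DLAs in log2(RPKM + 1) for each tested gene of the HMGN and HMGB families (purple) and of the lists of related genes (dark grey), with the list median as an orange bar. The grey band and dashed line are the 5th to 95th percentile and the median of all tested rows, and the medians of the HMGN family (−0.33) and the linker histones (−0.34) lie furthest to the DLA side.

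The replacement core histones, which are built into chromatin outside S phase, had 8 of 8 genes tested, 0 passing, 2 at an unadjusted p under 0.05 and a median of −0.19. The most abundant, H3f3b (histone H3.3), had 59.7, 71.8 and 74.8 RPKM in ULAs and 80.4, 75.5 and 75.8 in DLAs, with a difference of −0.17 (adjusted p = 0.471). H2afv, a histone variant of the H2A.Z type, had 32.4, 36.6 and 40.8 against 48.8, 52.0 and 49.5 RPKM, with a difference of −0.45 (adjusted p = 0.0771), and it passed when rows under a mean of 5 RPKM were left out or when brain 3 was left out.

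In the remaining lists 0 genes passed (limma, adjusted p). Of 14 other HMG-box genes without a sequence-specific target, 13 were tested, 1 had an unadjusted p under 0.05 and the median was −0.02, with Tox, which encodes a lymphocyte nuclear regulator, at 0.04. Of 13 histone chaperones, 12 were tested, 1 had an unadjusted p under 0.05 and the median was −0.03, with Nap1l4, which carries H2A and H2B, at −0.20 and Asf1a, which carries H3 and H4, at −0.37 (adjusted p = 0.387 and 0.163). None of 9 receptors and binding partners of extracellular HMGB1 reached a mean of 1 RPKM, and the highest were Ager and Tlr4, both HMGB1 receptors, at 0.67 and 0.592 RPKM. Of 8 genes tied to Hmga2 through Lin28 and let-7, 2 were tested, Igf2bp3 at −0.15 and Arid3b at 0.22, with 0 at an unadjusted p under 0.05.

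Markers of oligodendrocytes and red blood cells were higher in DLAs and the pericyte marker Rgs5 in ULAs, while the pericyte marker Pdgfrb did not differ. Higher in DLAs were also Hmgn1, Hmgn2 and Hmgn5 by their values, and the part of such cells in the HMG values was not tested. The oligodendrocyte sum was highest in brain 3 in both layers (176.8 and 275.0 RPKM), and the red blood cell sum was highest in the DLAs of brain 3 (76.7). In that brain the difference of Hmgn2 was the largest of the 3 and that of Hmgn1 the smallest. For every tested oligodendrocyte marker the difference between layers was also smallest in size in brain 3. That of Mog, for instance, was −1.68, −2.03 and −0.57 in brains 1, 2 and 3 on the log2 scale. For Hbb-b1 (−1.54, −1.74 and −4.02) and Hbb-b2 it was largest in brain 3. Without brain 3 the log2 differences were −0.47 for Hmgn1, −0.32 for Hmgn2 and −0.25 for Hmgn5. The 6 oligodendrocyte precursor markers summed to 85.3 to 96.6 RPKM in ULAs and 96.5 to 133.8 in DLAs, with 2 tested, 0 passing and 2 at an unadjusted p under 0.05 (limma). Those 2 were Olig1 and Olig2, which supplied almost all of the sum. Pdgfra, Gpr17 and Neu4 had means of 0.018, 0.013 and 0.027 RPKM. Cspg4 was lower in DLAs in each brain (0.92, 0.44 and 0.39 RPKM in ULAs, 0.43, 0.41 and 0.18 in DLAs). The sum therefore does not show more precursor cells in DLAs.

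The 5 differences were refitted under 11 other settings, and 51 of the 54 values kept their direction and their side of the threshold.

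**Figure D5:**
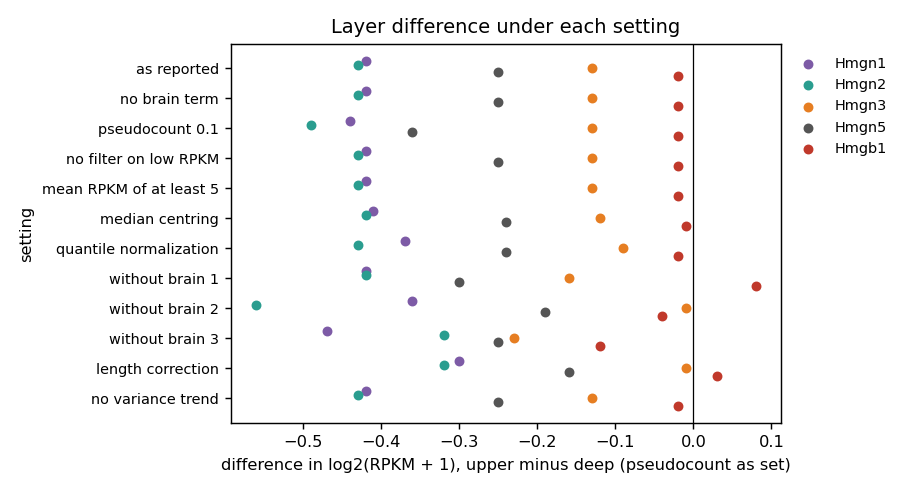
Difference between ULAs and DLAs in log2(RPKM + pseudocount) for the 5 tested genes as reported and under 11 other settings of the fit. Hmgn1, Hmgn2, Hmgn3 and Hmgn5 stay below 0 throughout, and Hmgb1 crosses 0 without brain 1 and with the length correction.

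Hmgn1 ranged from −0.47 to −0.30, Hmgn2 from −0.56 to −0.32, Hmgn3 from −0.23 to −0.01, Hmgn5 from −0.36 to −0.16 and Hmgb1 from −0.12 to 0.08. The ratio of ULAs to DLAs rose with mRNA length in each brain, with a Spearman correlation of 0.21, 0.37 and 0.10 in brains 1 to 3. The rows of Hmgn1, Hmgn2 and Hmgn3 are 1200, 1254 and 911 bases long, and with the length correction their differences were smaller in size (−0.30, −0.32 and −0.01). Among all rows the smallest absolute log2 difference that passed was 0.46 and the median of those that passed was 0.85, so the differences of Hmgn1 and Hmgn2 as reported lay just under the smallest.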

How the data were processed

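The authors deposited RPKM values (reads scaled to mRNA length and to mapped reads) for 3 ULA and 3 DLA libraries, with the mRNA length of each row, on mouse build mm9. SMART-Seq v4 cDNA was made into Nextera XT libraries and sequenced as single 36-base reads on a HiSeq instrument. The submitters' processing notes name bcl2fastq 1.8.4, CASAVA 1.8.2 and mm9, and the aligner and counting program are not given in the sources used here. Table starts were converted to count from 1.

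Depth was recovered from rows of up to 500 bases, where 100% of values fell on whole reads, and read numbers of members follow from it. Rows whose mean RPKM was 1 or more were tested on log2(RPKM + 1) with limma 3.58.1 in R 4.3.3 (trend, brain and layer as terms, 2-sided, Benjamini-Hochberg over 13999 rows, adjusted p under 0.05). Same-numbered libraries deviated together from their layer means (r = 0.42, 0.33 and 0.34, against −0.20 to −0.16 for other pairs) and come from the same brain. The p-values, SEs and intervals combine the spread between 3 brains with a variance estimated across all tested rows (9.9 degrees of freedom). They therefore do not measure the spread of a gene over the 3 brains alone. An exact permutation test over 3 pairs cannot give a p under 0.25 (0.1 unpaired), so none was used. The fit was tested on simulated data, where true differences as small as those of the members were not called. A gene that did not pass can therefore still differ. Other settings dropped the brain term, the variance trend, the filter on low values or 1 brain at a time, used a pseudocount of 0.1 or a minimum mean of 5 RPKM, centred each library on its median, applied quantile normalization, or subtracted a loess curve on mRNA length (span 0.5).

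Sequences and shared 36-base stretches came from GENCODE M21 transcripts, matched for all 9 members by symbol. Python 3.11.15, pandas 2.3.3, numpy 2.4.6, Biopython 1.88 and matplotlib 3.10.9 were used. All members are named, with other rows named Hmgn, Hmgb or Hmga, rows overlapping a member, the genes of each related list that passed and its 2 most abundant, and the 3 rows most like Hmgn1, Hmgn2 and Hmgn3. Some rows that this rule names are not reported here. Marker genes, H2afx and Gm29054 were named after their values were seen. The members and lists were chosen with earlier results of these data known. Immunostaining was not analysed here.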

Additional observations from a re-analysis of the deposited data

How the results depend on the processing

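With no replicate block, that is, with the pairing by brain left out, 41 of all tested rows passed in place of 228, and members and related genes stayed at 0. With no filter on low RPKM 0 of 27963 rows passed, with 2799 at an unadjusted p under 0.05, and with no variance trend 144 passed. Quantile normalization gave 138 rows higher in ULAs and 103 higher in DLAs, against 100 and 128. Leaving out 1 brain gave 230 to 1113 rows, 0 to 1 members and 0 to 3 related genes, the highest counts all without brain 3 (Hmgn1 among the members, and Asf1a, H2afv and H2afx). A mean RPKM of at least 5 gave 1 related gene, H2afv, with fewer rows tested. Hmgb1 ranged from −0.12 to 0.08 with 1 brain left out, turning to 0.08 without brain 1, and was 0.03 with the length correction, and the cause was not tested. The other settings changed no call of a member. Hmgb2, Hmgb3, Hmga1 and Hmga2 rested on 54 reads or fewer per library, and their differences were tested only without the filter.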

Other observations

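The rows whose log2 levels over the 6 libraries were most like those of Hmgn1 were ENSMUSG00000092004 (r = 0.999), Timp4 (r = 0.997), which encodes a tissue inhibitor of metalloproteinases, and ENSMUSG00000087293 (r = 0.993). Timp4 had 302.7 to 378.8 RPKM in ULAs and 420.4 to 447.3 in DLAs. Most like Hmgn2 were Flrt2 (r = 0.997), which encodes a membrane adhesion and guidance protein, Zfp330 (r = 0.99) and Morn2 (r = 0.988). Morn2 had 34.8 to 37.3 RPKM in ULAs and 40.6 to 53.0 in DLAs. For Hmgn3 they were Acaa1b (r = 0.994), a peroxisomal thiolase of fatty acid breakdown, ENSMUSG00000078932 (r = 0.993) and Bysl (r = 0.989). These are the highest of 13999 rows over 6 libraries that share brains, given as a description.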
